A study of Mus musculus with 6 samples.

Results

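The genes described here are 10 members of the fibroblast growth factor (FGF) pathway, chosen by gene name: the ligands Fgf1 and Fgf2, the receptors Fgfr1, Fgfr2, Fgfr3 and Fgfrl1, and the feedback inhibitors Spry1, Spry2, Spry4 and Spred1. Of these, 9 had at least 1 probe under their symbol, 15 probes in all of the 45281 on the array, and Spry1 was matched to no probe and is not analysed here. Their intensities were followed in oligodendrocyte precursor cells (OPC), the dividing and migratory glial cells that give rise to myelin-forming oligodendrocytes. The study set OPC of spinal cord beside OPC of cerebrum to find genes that differ, with cell migration in view. The groups were 3 spinal cord and 3 cerebrum cultures, all primary cells of C57BL/6 mouse pups aged 6 to 8 days, kept dividing for 7 days with 10 ng/ml PDGF-AA. Each preparation pooled 3 to 4 pups and gave 1 culture per tissue under a shared number, so no pup can be followed alone, and no untreated culture was part of the groups.

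FGFs are secreted or released proteins that bind receptor tyrosine kinases together with heparan sulfate chains on the cell surface. The activated receptor recruits docking proteins that switch on Ras and the mitogen-activated protein kinase (MAPK) cascade, and the cascade induces its own inhibitors, among them Sprouty and Spred proteins and dual-specificity phosphatases. In OPC cultures FGF2 is a classical mitogen that works together with PDGF-AA and holds back differentiation. The labels name PDGF-AA and no FGF among the additives.

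Of these genes 1 ligand and 2 receptors differed between the tissues. Fgf1 was 3.97-fold, Fgfr2 2.88-fold and Fgfrl1 1.57-fold higher in spinal cord OPC than in cerebrum OPC. In each of them all 3 spinal cord cultures lay above all 3 cerebrum cultures, as in 8.55% of all tested genes. Spred1 and the brighter Fgfr3 probe, the latter below the floor, showed this arrangement too. Fgfr1, Spry4 and Spred1 were measurable and did not pass the test. The probes of Fgf2, Fgfr3 and Spry2 were not above background on any array. In total 3 of the 6 tested members passed as higher in spinal cord OPC and 0 as lower. Of all 11226 tested genes 2.95% passed in either direction, 1.87% as higher and 1.08% as lower. With the cell preparation as a block in the fit 4 members passed, all as higher, while 3.63% of all tested genes did so. The 6 tested members had a median log2 fold change of 0.53, against 0.00 over all tested genes. The members were chosen with earlier results of these arrays known, so the count describes them and does not test the pathway.

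**Figure D1:**
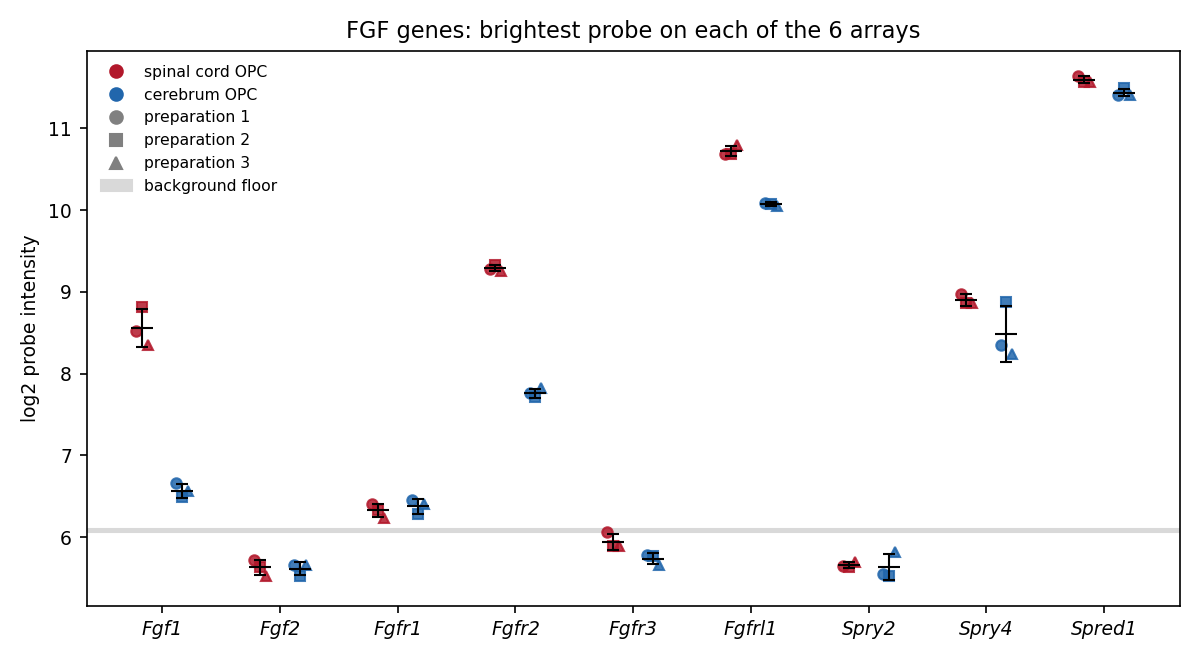
Log2 probe intensity (vertical axis) of the brightest probe of each of the 9 FGF genes with a probe, for 3 spinal cord and 3 cerebrum OPC cultures (points, shaped by preparation), with mean ± SD (bars) and the background floor of the 6 arrays (grey band). Fgf1, Fgfr2, Fgfrl1, Spred1 and Fgfr3 have all spinal cord points above all cerebrum points, and Fgf2, Fgfr3 and Spry2 lie under the floor.

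All levels are log2 probe intensities of the deposited normalised table. A probe counted as above background when it exceeded the 95th percentile of 1302 olfactory receptor probes on the same array, a linear intensity of 67.2 to 68.6. Between 20343 and 21081 probes per array exceeded this floor. Background remained in the values, so fold changes of dim probes are understated, and levels of different probes cannot be set against each other. Differences are spinal cord minus cerebrum, tested with limma over 20988 probes and adjusted by Benjamini-Hochberg, with a threshold of 0.05. In these cultures fewer cells expressing a gene and less RNA per cell cannot be told apart.

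The upstream sequences of the receptor genes that passed are shown for context, since their probes carry the receptor result. They are the 250 bases before the annotated start, from RefSeq (GRCm38.p6), written 5′ to 3′ on the gene's strand. Capitals mark matches, on either strand, to CCGGAA (the core recognised by ETS factors such as Etv5), TAATTA (a homeodomain core) or GGGCGG (the GC box).
Fgfr2, chr7:130266809-130267058, minus strand: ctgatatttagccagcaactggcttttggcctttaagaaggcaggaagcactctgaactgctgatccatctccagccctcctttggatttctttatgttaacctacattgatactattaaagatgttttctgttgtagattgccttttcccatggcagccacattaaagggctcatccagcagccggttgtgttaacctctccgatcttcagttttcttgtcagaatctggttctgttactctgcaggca
Fgfrl1, chr5:108693979-108694228, plus strand: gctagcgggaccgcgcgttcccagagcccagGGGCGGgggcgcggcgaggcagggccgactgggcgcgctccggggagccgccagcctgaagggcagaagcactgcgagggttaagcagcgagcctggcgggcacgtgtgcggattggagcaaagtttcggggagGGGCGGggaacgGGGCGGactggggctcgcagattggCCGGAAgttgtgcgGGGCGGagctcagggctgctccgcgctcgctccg
The Fgfrl1 window held 30 CpG dinucleotides, 4 GC boxes and 1 ETS core, with 73.6% G or C. The Fgfr2 window held 2 CpG dinucleotides, 44% G or C and 0 matches to the 3 motifs. Over 32851 promoter windows of the same length the median was 6 CpG dinucleotides and 52.4% G or C. An ETS core occurred in 12.03% of the windows, the homeodomain core in 4.84% and a GC box in 32.7%, and a match describes the letters only.

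Among the ligands, Fgf1, or acidic FGF, lacks a classical secretion signal and can activate every FGF receptor. Its brighter probe, annotated to chromosome 18, had log2 intensities of 8.52, 8.81 and 8.35 in spinal cord OPC, against 6.66, 6.49 and 6.56 in cerebrum OPC. The spinal cord values all lay above the cerebrum values with a gap of 1.69 between the nearest cultures, while the range among the spinal cord cultures was 0.453. The mean was 8.56 ± 0.23 in spinal cord and 6.57 ± 0.09 in cerebrum OPC (SD, n = 3 each). On the log2 scale the change was 1.99 ± 0.13 (SE, limma adjusted p = 1.02e-06). Its fold change had a 95% interval of 3.28 to 4.80, and the gene stood at rank 25 of 11226 by size of the difference. Within preparations the difference was 1.85, 2.32 and 1.79 for preparations 1, 2 and 3.

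The cerebrum values of Fgf1 were only a little above the floor. With the array's background subtracted its log2 fold change was 2.55 (adjusted p = 7.4e-07), so the size depends on the background that is left in. The second Fgf1 probe was dim and was not tested, since it exceeded the floor on 1 of 6 arrays, spinal cord replicate 2. It read 6.03, 6.16 and 6.00 in spinal cord OPC and 5.72, 5.70 and 5.64 in cerebrum OPC, again with no overlap. When probes of every brightness were tested, it passed with a log2 fold change of 0.38 ± 0.08 (SE, limma adjusted p = 0.0294).

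Fgf2, or basic FGF, had 1 probe, annotated to chromosome 3, and it was below the floor on every array. The intensities were 5.72, 5.64 and 5.53 in spinal cord OPC and 5.66, 5.53 and 5.66 in cerebrum OPC. The groups overlapped, and at this brightness no difference between the tissues could be measured.

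Among the receptors, Fgfr2 is a receptor tyrosine kinase whose transcripts are known from rat cultures to be prominent in differentiated oligodendrocytes. Its bright probe, annotated to transcript variant 2 on chromosome 7, had log2 intensities of 9.28, 9.33 and 9.26 in spinal cord OPC, against 7.76, 7.71 and 7.82 in cerebrum OPC. The tissues were 1.44 apart at their nearest cultures, and the cultures of a tissue lay within 0.072 of each other in spinal cord and 0.107 in cerebrum. The mean was 9.29 ± 0.04 in spinal cord and 7.76 ± 0.05 in cerebrum OPC (SD, n = 3 each). This gave a log2 fold change of 1.53 ± 0.10 (SE, limma adjusted p = 1.91e-06). The 95% interval of the fold change was 2.47 to 3.36, and the differences within preparations were 1.52, 1.62 and 1.44. By size of the difference Fgfr2 stood at rank 37 of 11226 genes.

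The 3 other Fgfr2 probes gave no such reading. The probe annotated to transcript variant 1 had 5.70, 5.91 and 6.21 in spinal cord OPC and 5.89, 5.75 and 5.87 in cerebrum OPC, and exceeded the floor on 1 array, spinal cord replicate 3. A second probe of variant 2 had 6.03, 5.94 and 5.78 in spinal cord OPC, against 5.68, 5.69 and 5.81 in cerebrum OPC. The last one had 5.90, 5.80 and 5.66 in spinal cord OPC, against 5.82, 5.82 and 5.90 in cerebrum OPC. These groups overlapped in all 3 probes. The Fgfr2 result therefore rests on 1 probe of 4, and the files do not give the probes' positions in the transcript.

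**Figure D2:**
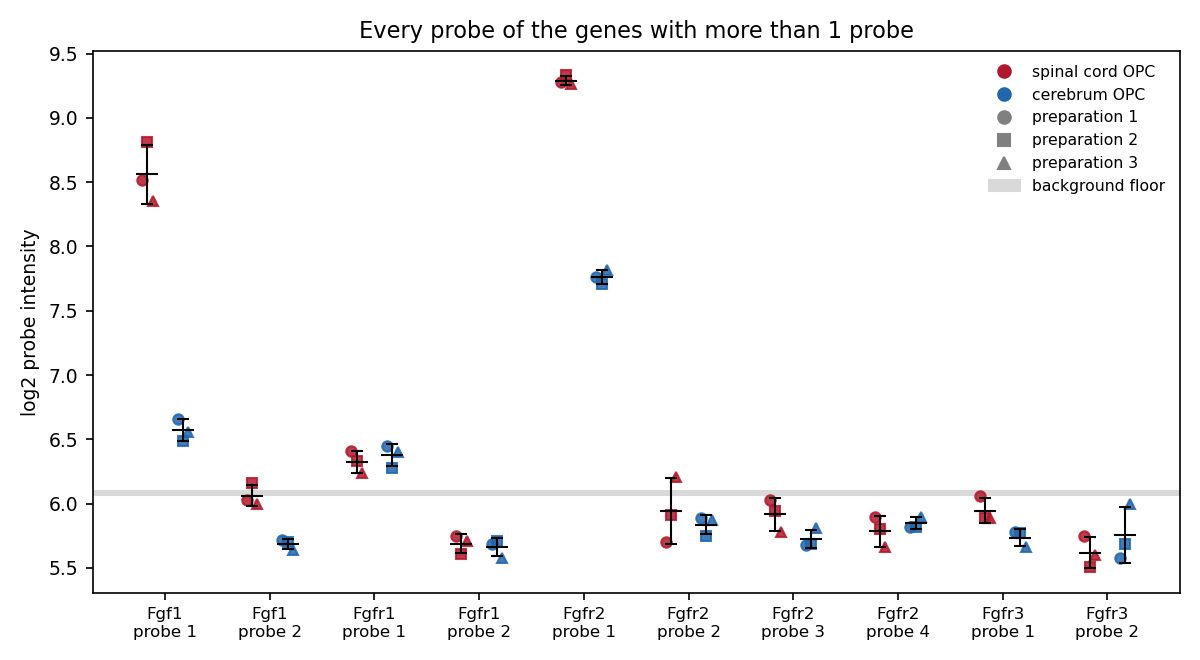
Log2 probe intensity (vertical axis) of every probe of Fgf1, Fgfr1, Fgfr2 and Fgfr3 in spinal cord and cerebrum OPC (points by preparation, bars mean ± SD, grey band the background floor). In Fgf1, Fgfr1 and Fgfr2 only the first probe is above the floor on all arrays, and in Fgfr3 neither probe is.

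Fgfrl1 encodes a receptor that binds FGF and heparin but has no kinase domain. Its 1 probe, annotated to chromosome 5, had 10.69, 10.68 and 10.79 in spinal cord OPC, against 10.09, 10.08 and 10.05 in cerebrum OPC. The 2 tissues did not overlap, with a gap of 0.590 and ranges of 0.114 and 0.041 within spinal cord and cerebrum. The mean was 10.72 ± 0.06 in spinal cord and 10.07 ± 0.02 in cerebrum OPC (SD, n = 3 each). Fgfrl1 had a log2 fold change of 0.65 ± 0.10 (SE, limma adjusted p = 0.00286), with a 95% interval of 1.35- to 1.82-fold and differences within preparations of 0.60, 0.60 and 0.75.

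Fgfr1, the receptor through which FGF2 acts on many neural cells, had a probe slightly above the floor on all 6 arrays. It read 6.41, 6.33 and 6.24 in spinal cord OPC, against 6.45, 6.28 and 6.40 in cerebrum OPC, and the tissues overlapped. Fgfr1 had a log2 fold change of -0.05 ± 0.09 (SE, limma adjusted p = 0.968), with a 95% interval of -0.25 to 0.14. A change of the size seen for Fgfr2 lies outside this interval on the intensity scale, but a probe this close to background understates differences. The other Fgfr1 probe was below the floor throughout, with 5.75, 5.61 and 5.71 in spinal cord and 5.69, 5.71 and 5.58 in cerebrum OPC.

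Fgfr3, a receptor known for its expression in astrocytes and glial progenitors, was below the floor with both probes on all 6 arrays. Its brighter probe had 6.06, 5.89 and 5.89 in spinal cord OPC, against 5.78, 5.77 and 5.66 in cerebrum OPC. These values did not overlap, but they did not pass when probes of every brightness were tested (log2 fold change 0.21 ± 0.08, SE, limma adjusted p = 0.517). The other probe had 5.75, 5.51 and 5.60 in spinal cord OPC and 5.58, 5.69 and 6.00 in cerebrum OPC, and here the groups overlapped.

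**Figure D3:**
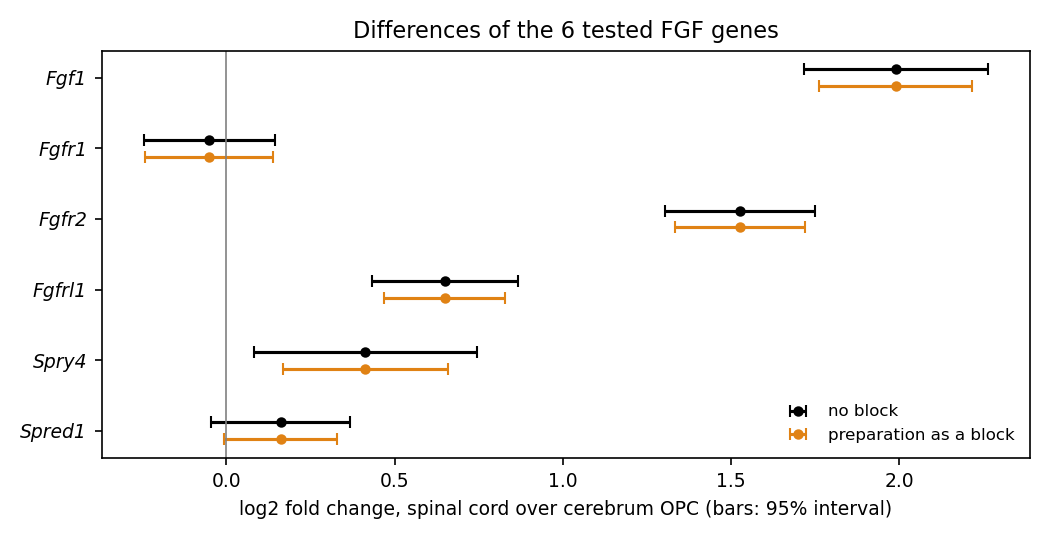
Log2 fold change of spinal cord over cerebrum OPC (horizontal axis) with 95% intervals from limma for the 6 tested FGF genes, without (black) and with (orange) the cell preparation as a block. The intervals of Fgf1, Fgfr2, Fgfrl1 and Spry4 lie above 0 in both fits, and Spry4 passes the adjusted threshold only with the block.

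Among the feedback inhibitors, Spry4 is a Sprouty protein that restrains signalling from receptor tyrosine kinases to MAPK. Its probe, annotated to chromosome 18, had 8.98, 8.86 and 8.86 in spinal cord OPC, against 8.35, 8.88 and 8.24 in cerebrum OPC. Cerebrum replicate 2 stood apart from the other cerebrum cultures and reached the spinal cord values, so the tissues overlapped. The mean was 8.90 ± 0.07 in spinal cord and 8.49 ± 0.34 in cerebrum OPC (SD, n = 3 each). The log2 fold change was 0.41 ± 0.15 (SE) and did not pass (limma adjusted p = 0.312). With the preparation as a block it passed narrowly (limma adjusted p = 0.047), and without cerebrum replicate 2 it was 0.61 (limma adjusted p = 0.0424). In the other fits without 1 array Spry4 did not pass, with log2 fold changes of 0.29 to 0.43 (limma adjusted p of 0.306 to 0.693). Within preparations the difference was 0.63, -0.02 and 0.63, higher in spinal cord OPC in 2 of 3 pairs.

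Spred1, which inhibits Ras together with neurofibromin, had 1 bright probe. It read 11.64, 11.57 and 11.57 in spinal cord OPC and 11.41, 11.49 and 11.41 in cerebrum OPC. All spinal cord values lay above all cerebrum values, by 0.087 at the nearest, an arrangement found in 8.55% of all tested genes. The log2 fold change of 0.16 ± 0.10 (SE) did not pass (limma adjusted p = 0.702), and its 95% interval ran from 0.97- to 1.29-fold. Spry2 was below the floor on all arrays, with 5.65, 5.63 and 5.70 in spinal cord OPC and 5.55, 5.53 and 5.82 in cerebrum OPC.

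The genes whose intensities over the 6 arrays most resembled those of Fgf1 were the Hox gene Hoxa9, the cadherin gene Cdh8 and the Iroquois gene Irx5 (Pearson r of 0.997, 0.996 and 0.996, n = 6 arrays). For Fgfr2 they were the Hox genes Hoxa7 and Hoxc6 and the surface molecule gene Cd83 (r of 0.999 in each, n = 6 arrays). All of these genes share a step between the tissues, so r over the 6 arrays includes that step. Hoxa9, Cdh8, Hoxa7 and Hoxc6 were below the floor on all 3 cerebrum arrays and were tested through the spinal cord arrays alone, so their r and rank rest partly on background readings. Irx5 and Cd83 were above the floor on all 6 arrays.

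The wider pathway was followed in 6 lists with 107 genes outside the 10 members, of which 105 had a probe and 76 were above the floor on at least 3 arrays and tested. Of these 76 genes 3 passed as higher in spinal cord OPC and 0 as lower, a share of 3.95%, against 2.95% of all tested genes. The median log2 fold change was 0.01, against 0.00 over all tested genes. This share was near that of all genes. With the preparation as a block 9 were higher and 3 lower, a share of 15.8%, against 6.33% of all tested genes in that fit. The higher ones alone made up 11.8%, against 3.63% of all tested genes.

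Of 20 other FGF ligands only Fgf12, Fgf13 and Fgf22 were above the floor on at least 3 arrays, and 0 of the 3 passed. Fgf12 and Fgf13 encode intracellular FGF homologous factors that bind sodium channels. Fgf12 had a log2 fold change of -0.20 ± 0.12 (SE, limma adjusted p = 0.694). Fgf13 had 0.08 ± 0.17 (SE, limma adjusted p = 0.974), with a sign that turned without spinal cord replicate 1 (-0.02) or cerebrum replicate 3 (-0.10). The secreted ligands Fgf5, Fgf8, Fgf9 and Fgf18 were among the 17 that were not tested, and Fgf5 and Fgf9 had a probe above the floor on 2 arrays each.

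Of 11 other receptors and co-receptors 6 were tested and 0 passed, and Fgfr4 was below the floor. The largest difference was that of Flrt2, a transmembrane guidance protein of a family that also binds FGF receptors. It had 7.94, 7.71 and 7.66 in spinal cord OPC, against 8.99, 8.67 and 8.03 in cerebrum OPC. The tissues did not overlap, and cerebrum replicate 3 lay nearest to the spinal cord values. The log2 fold change was -0.80 ± 0.20 (SE, limma adjusted p = 0.0606). Flrt2 passed as lower with the block (limma adjusted p = 0.000194), without cerebrum replicate 3 (2.13e-05) and when probes of every brightness were tested (0.0358). In the other fits without 1 array Flrt2 did not pass, with p of 0.102 to 0.268. Its relative Flrt1 had -0.38 ± 0.11 (SE, limma adjusted p = 0.159) and passed as lower with the block (0.0222), a call lost when preparation 3 was left out of that fit (0.0716). A dimmer Flrt1 probe had -0.11 (limma adjusted p = 0.898).

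Of 21 tested genes for heparan sulfate carriers and the enzymes that build and trim the chains, 2 passed as higher in spinal cord OPC. As lower 0 passed, and with the block 2 were higher and 1 lower. The share that passed was 9.52%, and 14.3% with the block, against 2.95% and 6.33% of all tested genes. Hs3st1, a 3-O-sulfotransferase, had 6.94, 6.80 and 6.71 in spinal cord OPC, against 6.43, 6.31 and 6.45 in cerebrum OPC (log2 fold change 0.42 ± 0.10, SE, limma adjusted p = 0.0362). The glypican gene Gpc5 had 6.56, 6.50 and 6.67 in spinal cord OPC, against 6.29, 6.14 and 6.12 in cerebrum OPC (0.40 ± 0.09, SE, limma adjusted p = 0.0416). Both probes were dim, with no overlap between the tissues, and the other Gpc5 probes were below the floor on every array. The Hs3st1 call was kept only without cerebrum replicate 3 (limma adjusted p = 0.0173) among the fits without 1 array, with p of 0.0559 to 0.197 in the others. The Gpc5 call was kept only without cerebrum replicate 1 (0.0368), with 0.0547 to 0.194 in the others. Glce, the epimerase of the chains, had -0.35 ± 0.16 (SE, limma adjusted p = 0.477) and passed as lower with the block (0.0221). Dimmer Glce probes had -0.19 and 0.01 (limma adjusted p = 0.631 and 0.993).

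Of 19 tested adaptors and members of the Ras and MAPK cascade 0 passed. With the block 1 was higher, a share of 5.26%, against 3.63% of all tested genes in that fit. Gab1, a docking protein of receptor tyrosine kinases, had 12.83, 12.69 and 12.55 in spinal cord OPC, against 12.51, 12.30 and 12.02 in cerebrum OPC. Its log2 fold change was 0.41 ± 0.13 (SE, limma adjusted p = 0.176), and it passed with the block (0.0023) and without cerebrum replicate 1 (0.0391). In the other fits without 1 array Gab1 did not pass, with p of 0.154 to 0.564. Map2k1, which encodes the kinase MEK1, had 0.24 ± 0.10 (SE, limma adjusted p = 0.46). Frs2, the docking protein that FGF receptors use, had -0.08 ± 0.11 (SE, limma adjusted p = 0.948), with a 95% interval that reached 0.15 at its upper end.

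**Figure D4:**
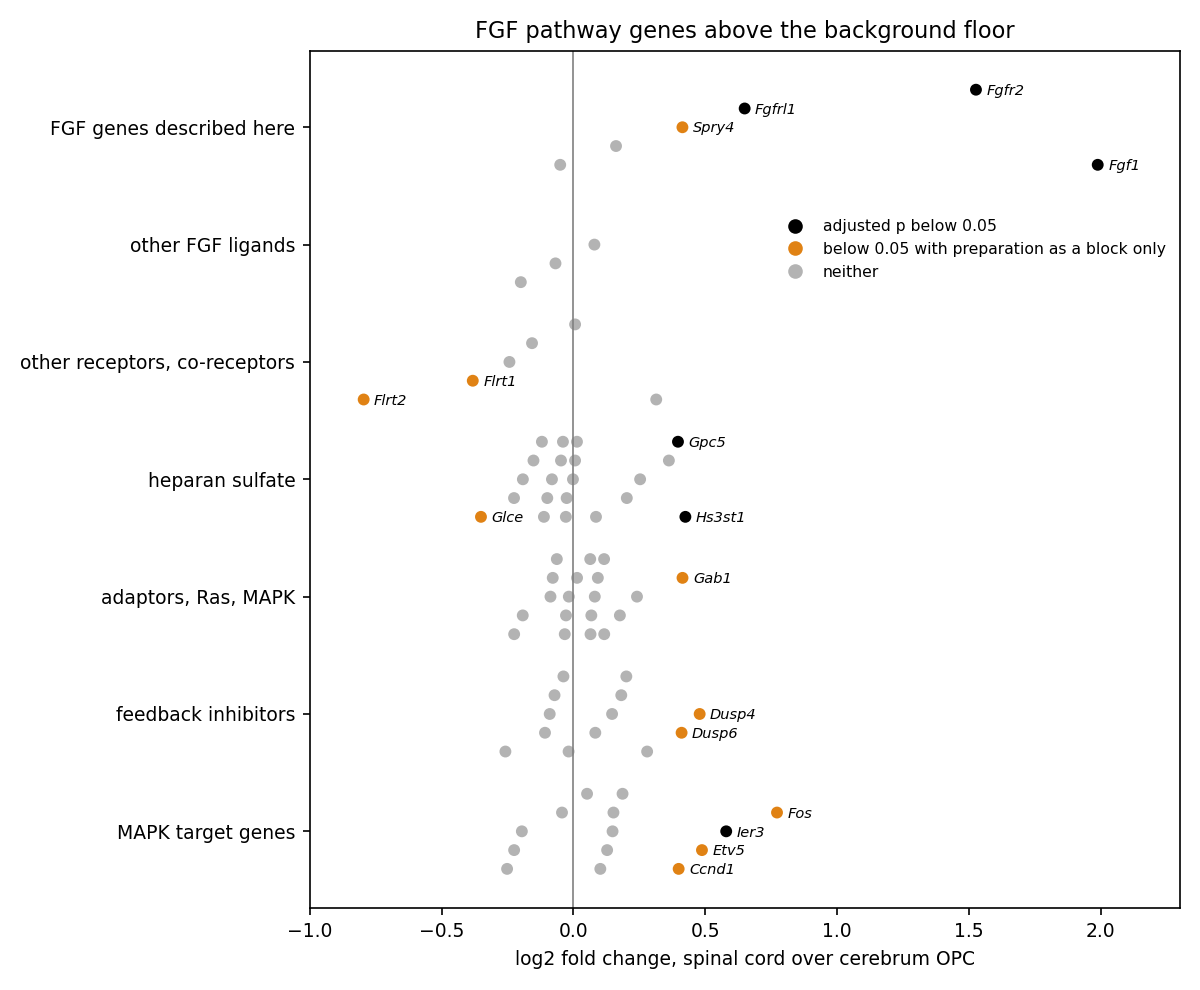
Log2 fold change of spinal cord over cerebrum OPC (horizontal axis) for the 6 tested FGF genes and 76 further genes in 6 pathway lists (rows; the height within a row has no meaning). Black points passed in limma, orange points passed only with the preparation as a block, and grey points passed in neither fit.

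Inhibitors and targets of the MAPK cascade were next, the genes that read out its activity in many cells. Of 13 other tested feedback inhibitors 0 passed. With the block 2 were higher, a share of 15.4%, against 3.63% of all tested genes in that fit. Dusp6, a phosphatase that inactivates ERK, had 12.88, 12.89 and 12.70 in spinal cord OPC, against 12.55, 12.66 and 12.04 in cerebrum OPC. The values did not overlap, and cerebrum replicate 3 lay well below the other cerebrum cultures. The log2 fold change of Dusp6 was 0.41 ± 0.14 (SE, limma adjusted p = 0.268), and it passed with the block (0.00653). The related phosphatase gene Dusp4 had 0.48 ± 0.17 (SE, limma adjusted p = 0.279), and 0.00852 with the block.

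Of 14 tested MAPK target genes 1 passed as higher in spinal cord OPC and 0 as lower, and 4 and 0 with the block. The share that passed was 7.14%, and 28.6% with the block, against 2.95% and 6.33% of all tested genes. Ier3, an immediate early gene, had 10.99, 11.05 and 10.92 in spinal cord OPC, against 10.43, 10.61 and 10.20 in cerebrum OPC. All spinal cord values lay above all cerebrum values. Ier3 had a log2 fold change of 0.58 ± 0.12 (SE, limma adjusted p = 0.0213). The call was lost without any one of the spinal cord cultures, with p of 0.0971, 0.149 and 0.0715 for replicates 1, 2 and 3, while the log2 fold change was 0.58, 0.55 and 0.61. Etv5, an ETS transcription factor induced by FGF signals, had 10.37, 10.30 and 10.07 in spinal cord OPC, against 10.06, 9.88 and 9.33 in cerebrum OPC. Its log2 fold change of 0.49 ± 0.17 (SE) did not pass (limma adjusted p = 0.258) and passed with the block (0.00362). The cyclin D1 gene Ccnd1 had 0.40 ± 0.15 (SE, limma adjusted p = 0.298), and 0.00175 with the block. The immediate early gene Fos had 0.77 ± 0.25 (SE, limma adjusted p = 0.199), and 0.04 with the block.

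Most of these feedback and target genes had their lowest value in 1 culture. Of the 27 tested genes in both lists 22 (81.5%) had their lowest value of the 6 arrays in cerebrum replicate 3, against 27.6% of all tested genes, and Spry4 had its lowest value there too. Within preparations Dusp6 was higher in spinal cord OPC by 0.33, 0.23 and 0.66 for preparations 1, 2 and 3, and Etv5 by 0.30, 0.42 and 0.74. Fos differed by 0.30, 0.13 and 1.89, so most of its mean came from preparation 3. A further fit, chosen after seeing the data, used the block and left preparation 3 out. It kept only preparations 1 and 2, so its p-values rest mostly on the spread that limma borrows from other probes. There Dusp6 (limma adjusted p = 0.0194), Dusp4 (0.0414), Etv5 (0.0126), Ccnd1 (0.00162), Gab1 (0.00257) and Ier3 (0.000221) passed as higher. Hs3st1 (limma adjusted p = 0.00234) passed as higher too, and Flrt2 (1.67e-08) and Glce (0.0296) as lower. Of the 76 pathway genes 7 were higher and 8 lower in that fit, against 501 and 447 of all 11226 tested genes. Most of the 8 lower ones are not named, since only genes that passed with the block on all 6 arrays were followed. Fos (0.235), Flrt1 (0.0716), Gpc5 (0.0816) and Spry4 (0.128), which passed with the block, did not pass in the fit without preparation 3. In that fit Fgf1, Fgfr2 and Fgfrl1 were 2.09, 1.57 and 0.60 (log2) higher in spinal cord OPC and passed.

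**Figure D5:**
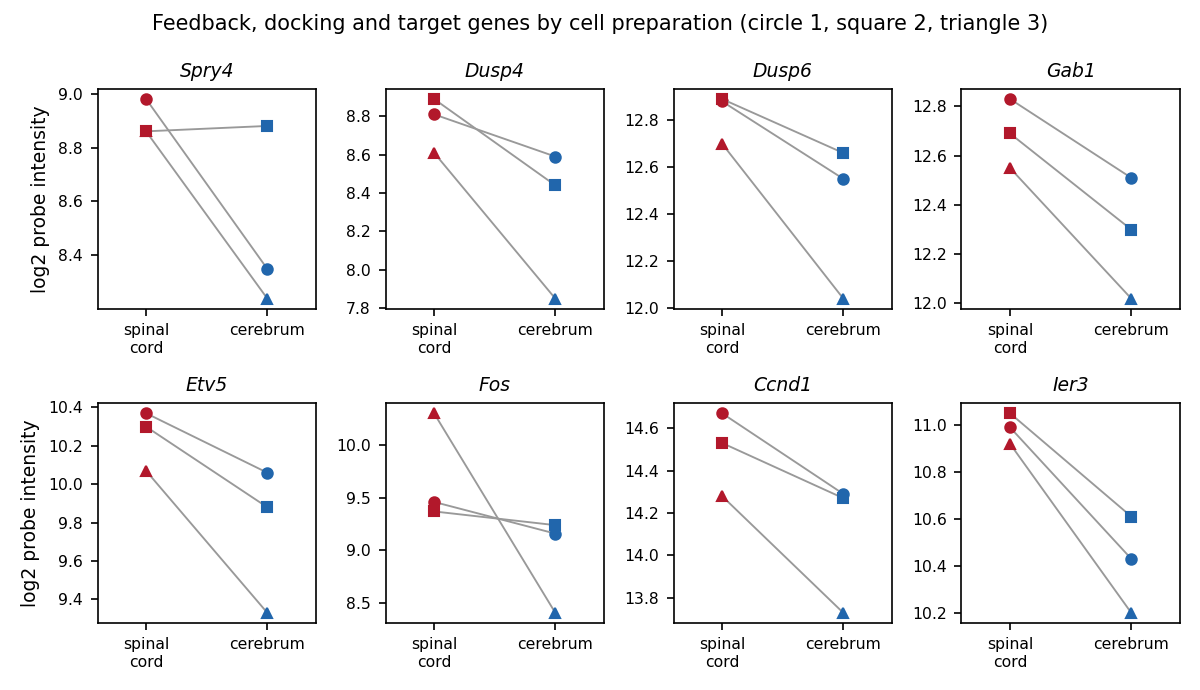
Log2 probe intensity (vertical axes, each with its own range) of Spry4, the docking protein gene Gab1, Ier3 and 5 further feedback and target genes in spinal cord (left) and cerebrum (right) OPC, with lines that join the cultures of a preparation. Except for Spry4 in preparation 2, every line is higher at spinal cord, and preparation 3 has the lowest cerebrum point in all 8 genes.

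The cell type of the cultures was checked with marker lists. Of 17 OPC markers 16 were tested, among them Pdgfra, Cspg4, Olig1, Olig2 and Sox10. None passed as higher (0 with the block too), and 2 passed as lower, Gpr17 (log2 fold change -1.37) and Rlbp1 (-0.84), against 3 with the block. The list had summed linear intensities of 74594 to 80589 in spinal cord and 81420 to 90633 in cerebrum OPC. Pdgfra, the receptor of the added PDGF-AA, had 13.44, 13.35 and 13.30 in spinal cord OPC, against 13.68, 13.60 and 13.39 in cerebrum OPC (log2 fold change -0.20 ± 0.10, SE, limma adjusted p = 0.586). Of 12 astrocyte markers with a probe 8 were tested and 2 were lower, Sox9 (log2 fold change -1.25) and Acsbg1 (-0.79), with 1 higher and 2 lower under the block. Gfap, Aldh1l1 and Gja1 were not tested, and the 8 summed to 21427 to 23182 in spinal cord and 23619 to 31326 in cerebrum OPC. The direction of this sum rests on Sox9, since the other 7 summed to 15676 to 17048 in spinal cord and 13693 to 14786 in cerebrum OPC, and the median log2 fold change of the 8 was 0.11. Of 15 myelin markers 9 were tested. Mbp (log2 fold change 1.04) was higher and Enpp2 (-0.65) lower (4 higher and 2 lower with the block), with sums of 34629 to 41290 in spinal cord and 35035 to 41667 in cerebrum OPC.

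Of 14 neuron markers with a probe 7 were tested and 1, Gap43 (log2 fold change 0.40), was higher (2 with the block), and the sums were 13074 to 15010 in spinal cord and 11343 to 12189 in cerebrum OPC. Of 9 Schwann cell and neural crest markers 6 were tested and Sox2 (log2 fold change -0.70) was lower, with sums of 8725 to 9586 in spinal cord and 7167 to 10943 in cerebrum OPC. Of microglial, endothelial and mural, and fibroblast and meningeal markers 4 of 14, 5 of 12 and 3 of 11 were tested and 0 passed (1 lower fibroblast marker with the block). The fibroblast sums were 297 to 323 in spinal cord and 341 to 468 in cerebrum OPC, the microglial sums 314 to 338 in spinal cord and 305 to 330 in cerebrum OPC, and the endothelial sums 339 to 369 in spinal cord and 351 to 384 in cerebrum OPC. Most microglial and endothelial probes lay near the floor, so their sums hold largely background. Ptprc, Pecam1, Dcn and Lum were not tested. The sums of the OPC, astrocyte, neuron and fibroblast lists did not overlap between the tissues, but each of these separations rested on single genes. The astrocyte sums separated the other way without Sox9. The sums overlapped without Pdgfra, Gpr17 or Rlbp1 in the OPC list, without Gap43 in the neuron list and without Prrx1 in the fibroblast list. Their part in the differences of Fgf1, Fgfr2 and Fgfrl1 was not tested.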

How the data were processed

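Biotinylated cRNA from 6 cultures was read on Illumina arrays, per the labels' protocols. The values are linear intensities from the authors' deposited value table. All arrays had nearly the same distribution (maximum 49682, upper quartile 162.7), so they had been normalised between arrays; the method used is not stated. The submitters' processing notes name GenomeStudio 2011.1. A further deposited table supplied only probe annotation. Its 12 columns of per-sample values match no sample's labels and were not used. The array number limits the precision, and no genome build is named.

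Symbols were updated through RefSeq (16219 current, 5718 by synonym and 8932 unmatched of 30869). Log2 intensities of probes above the floor on at least 3 arrays were tested with limma 3.58.1 in R 4.3.3 (lmFit, eBayes with an intensity trend), after a check on simulated data. The brightest tested probe stood for its gene. Same-numbered cultures share a preparation per the design text. Their deviations from the tissue means correlated with 0.525, 0.206 and 0.496, against -0.455 to 0.031 otherwise. Deviations cancel within a tissue, so positive values in some pairs push the others down, and this contrast is partly built in. The fit without the block is reported first. Members, lists and tests were chosen with earlier results of these data known. Named genes were all members, per list up to 6 passing genes or else the 2 largest differences, Pdgfra, and the 3 genes most like Fgf1 and Fgfr2. Genes that passed only with the block, Frs2 and single markers were named after seeing their values. Alternatives were the block, 2 other filters, quantile normalisation, background subtraction (offset 16), 2 other variance settings and each array left out.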

Additional observations from a re-analysis of the deposited data

How the results depend on the processing

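The number of FGF members higher in spinal cord OPC was 3, and 3 or 4 in all 14 alternatives, with 0 lower in each. Fgf1, Fgfr2 and Fgfrl1 passed in every one of them, and without 1 array their log2 fold changes ranged from 1.86 to 2.09, 1.501 to 1.555 and 0.61 to 0.67. Quantile normalisation could change little, since the arrays already had nearly the same distribution. The 76 other pathway genes were less stable. The replicate block gave 9 higher and 3 lower, no intensity trend gave 1 higher, no filter gave 1 lower, and leaving out 1 array gave 0 to 3 higher and 0 to 3 lower. Over all genes 210 were higher and 121 lower, against 408 and 303 with the replicate block, and 131 to 312 and 64 to 262 without 1 array. The replicate block without preparation 3, chosen after seeing the data, gave 7 and 8 pathway genes and 501 and 447 genes in all. The sign of Fgfr1 turned there (0.0025), as did that of Fgf13 (-0.0554), which ranged from -0.10 to 0.26 without 1 array. The cause was not tested. Signal over background limits Fgf2, Fgfr3, Spry2 and Fgfr1, whose probes lay under or near the floor.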
